A study of Mus musculus with 8 samples.

Results

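The SLC25 family consists mostly of solute carriers that span the inner mitochondrial membrane. Its members were taken as every row of the deposited table whose symbol is Slc25a followed by a number and that had any count, which gave 44 carriers of 16994 genes. Hearts of male WT mice and of mice with whole-body TIGAR knockout (TKO, labelled TIGAR KO) were sampled in 4 regions. The allele behind the whole-body knockout is not given in the sources used here. The regions were the left ventricle (LV) and the infarct, border, and remote zones left by myocardial infarction (MI), produced by coronary ligation at 16 weeks of age. The study imaged hearts up to 4 weeks after ligation, and the time at which tissue was taken for sequencing is not stated. Each genotype and region is 1 library, so 8 libraries carry all values. RNA of 3 mice was pooled for each infarct zone library, and the number of mice behind the other libraries is not named. The LV samples serve as a reference, and whether those hearts had a sham operation is not stated. The disruption is present in every cell type, so no value separates a cardiomyocyte effect from that of other cells.

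Most SLC25 carriers exchange 1 solute for another across the inner membrane and so couple the matrix to the cytosol. The ADP/ATP carriers export ATP made by oxidative phosphorylation, the phosphate carrier brings in the phosphate it consumes, and the aspartate/glutamate and 2-oxoglutarate/malate carriers move reducing equivalents through the malate-aspartate shuttle. The carnitine/acylcarnitine carrier admits long-chain fatty acids for oxidation, the main fuel of the adult heart, and the mitoferrins supply iron for heme and iron-sulfur clusters.

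Total estimated counts per library ranged from 27429240 to 33799249. *Tigar*, the disrupted gene, had between 1066 and 2215 counts in the WT libraries and between 51 and 87 in the TKO libraries. Values are given as CPM, counts set to a common library total, after scaling by the TMM method of edgeR, which assumes that most genes do not differ between libraries. Its factor was 1.54 for the WT infarct zone, 1.26 for the TKO infarct zone, and between 0.866 and 0.956 for the others. All 10 cardiomyocyte markers examined had counts in every library. Their summed level was 38768 CPM in the WT LV, 38650 in the TKO LV, 11871 in the WT infarct zone, and 20485 in the TKO infarct zone. In bulk tissue, fewer cells of a type and less RNA per cell cannot be told apart.

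The carriers together took 0.820% of all counts in the WT LV and 0.914% in the TKO LV. The infarct zone libraries gave 0.406% (WT) and 0.575% (TKO), the lowest values of the 8 libraries. The border zone had 0.674% in WT and 0.783% in TKO, and the remote zone 0.762% and 0.799%. *Slc25a4*, the ADP/ATP carrier of heart and skeletal muscle (also called Ant1), alone held 57.9% of all carrier counts, and *Slc25a3*, the phosphate carrier, held 15.8%. Per kilobase of the longest coding transcript, *Slc25a4* in the WT LV reached 2869 CPM, *Slc25a3* 957, *Slc25a11* 311, and *Slc25a5* 196, the highest values of the family. At the other end, 5 carriers did not reach the mean of 1 CPM that was required for testing. With 1 library per group, no order of neighbouring levels has a replicate check.

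**Figure D1:**
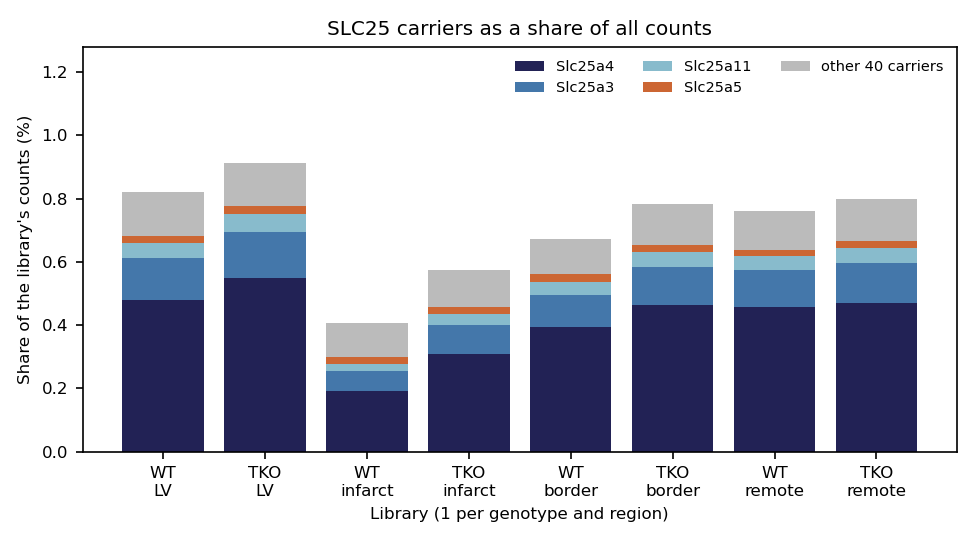
Stacked bars give the share of each library's counts (%) held by *Slc25a4*, *Slc25a3*, *Slc25a11*, *Slc25a5*, and the other 40 carriers together, for 1 library per genotype and region. The infarct zone bars are the lowest at 0.406% (WT) and 0.575% (TKO), and *Slc25a4* is the largest piece of every bar.

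Which carriers differed between the infarct zone and the LV was tested with edgeR's quasi-likelihood method, with genotype as a block, so the 2 genotypes stood in for replicates. Of the 39 carriers tested, 22 fell in the infarct zone, 5 rose, and 12 did not pass the adjusted threshold of 0.05. Over all 12999 genes tested, 56.8% were called, 28.6% lower and 28.2% higher, whereas 56.4% of the carriers were called lower and 12.8% higher. The median log2 fold change was -0.56 over the carriers and 0.02 over all genes. The calls ran from *Slc25a34* at the bottom (log2 fold change -1.97, SE 0.30) to *Slc25a24* at the top (1.49, SE 0.15). Scaling by total counts alone shifted the median of all genes to 0.71 on the log2 scale, and under it 12 carriers were called higher and 10 lower. The 10 carriers that were called lower under both scalings were *Slc25a3*, *Slc25a4*, *Slc25a11*, *Slc25a12*, *Slc25a13*, *Slc25a20*, *Slc25a26*, *Slc25a34*, *Slc25a39*, and *Slc25a42*. With the remote zone as reference in place of the LV, 21 carriers were called lower and 4 higher, where 49.5% of all genes were called (24.8% lower and 24.6% higher). All 21 and all 4 were among those called against the LV. The exceptions were *Slc25a22* and *Slc25a53*, which were called against the LV alone.

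Markers of several cell types moved with this comparison. Of the 5 endothelial markers, 1 was called lower, *Kdr*, and 4 were not called, whereas all 4 smooth muscle markers were called higher. Of the cardiomyocyte markers, 9 of 10 were called lower in the infarct zone and *Nppa* was called higher, and the median ratio of the infarct zone to the LV was 0.248 in WT and 0.503 in TKO. All 7 fibroblast markers were called higher, with a summed level of 8235 CPM in the WT and 6830 CPM in the TKO infarct zone against 866 and 969.6 CPM in the LV. All 7 macrophage markers were also called higher, and none of these markers was at 0 in any library. Their part in the carriers' result was not tested.

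The stretches of 250 bases before the RefSeq start (GRCm38.p6) are shown for the carriers with the lowest and the highest fold changes in the infarct zone, since these lie at the ends of the family's range. *Slc25a34* lies on chromosome 4 (chr4:141623835-141624084, minus strand) and *Slc25a13* on chromosome 6 (chr6:6217174-6217423, minus strand), both among the carriers that fell. *Slc25a24* lies on chromosome 3 (chr3:109122899-109123148, plus strand) and *Slc25a45* on chromosome 19 (chr19:5877572-5877821, plus strand), both among those that rose. Capitals mark the CCAAT box and the nuclear receptor half-site AAGGTCA, each on either strand.
Slc25a34: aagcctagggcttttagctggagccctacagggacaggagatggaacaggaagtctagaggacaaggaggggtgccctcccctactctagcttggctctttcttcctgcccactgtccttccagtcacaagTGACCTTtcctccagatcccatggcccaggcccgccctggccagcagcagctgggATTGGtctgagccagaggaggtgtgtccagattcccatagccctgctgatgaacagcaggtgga
Slc25a13: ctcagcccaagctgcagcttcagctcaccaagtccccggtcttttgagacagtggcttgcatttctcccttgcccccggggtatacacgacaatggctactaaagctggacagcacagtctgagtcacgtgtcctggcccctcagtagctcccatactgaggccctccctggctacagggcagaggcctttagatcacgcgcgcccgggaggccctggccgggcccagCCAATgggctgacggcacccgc
Slc25a24: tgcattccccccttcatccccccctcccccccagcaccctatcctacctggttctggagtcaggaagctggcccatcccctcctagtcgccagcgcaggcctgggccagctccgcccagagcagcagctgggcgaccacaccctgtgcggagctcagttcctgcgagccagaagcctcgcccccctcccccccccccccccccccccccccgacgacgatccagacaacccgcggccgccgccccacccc
Slc25a45: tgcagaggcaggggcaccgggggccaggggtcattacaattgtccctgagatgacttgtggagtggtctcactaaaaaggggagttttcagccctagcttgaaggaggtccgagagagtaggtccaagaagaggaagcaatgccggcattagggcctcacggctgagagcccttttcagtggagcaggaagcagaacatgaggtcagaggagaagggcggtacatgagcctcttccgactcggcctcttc
The promoter table held 45 stretches for 35 of the 44 carriers. CCAAT, or ATTGG on the other strand, was in 21 of these 45 (46.7%) and in 33.8% of all 32851 promoter stretches of this length. AAGGTCA, or TGACCTT, was in 1 of the 45, that of *Slc25a34*, and in 4.08% of all. The GC box GGGCGG, or CCGCCC, which is not capitalised above, was in 32 of the 45 (71.1%) and in 32.7% of all. A match is a description of the letters and not of a bound site. The motifs do not overlap one another in the stretches shown.

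**Figure D2:**
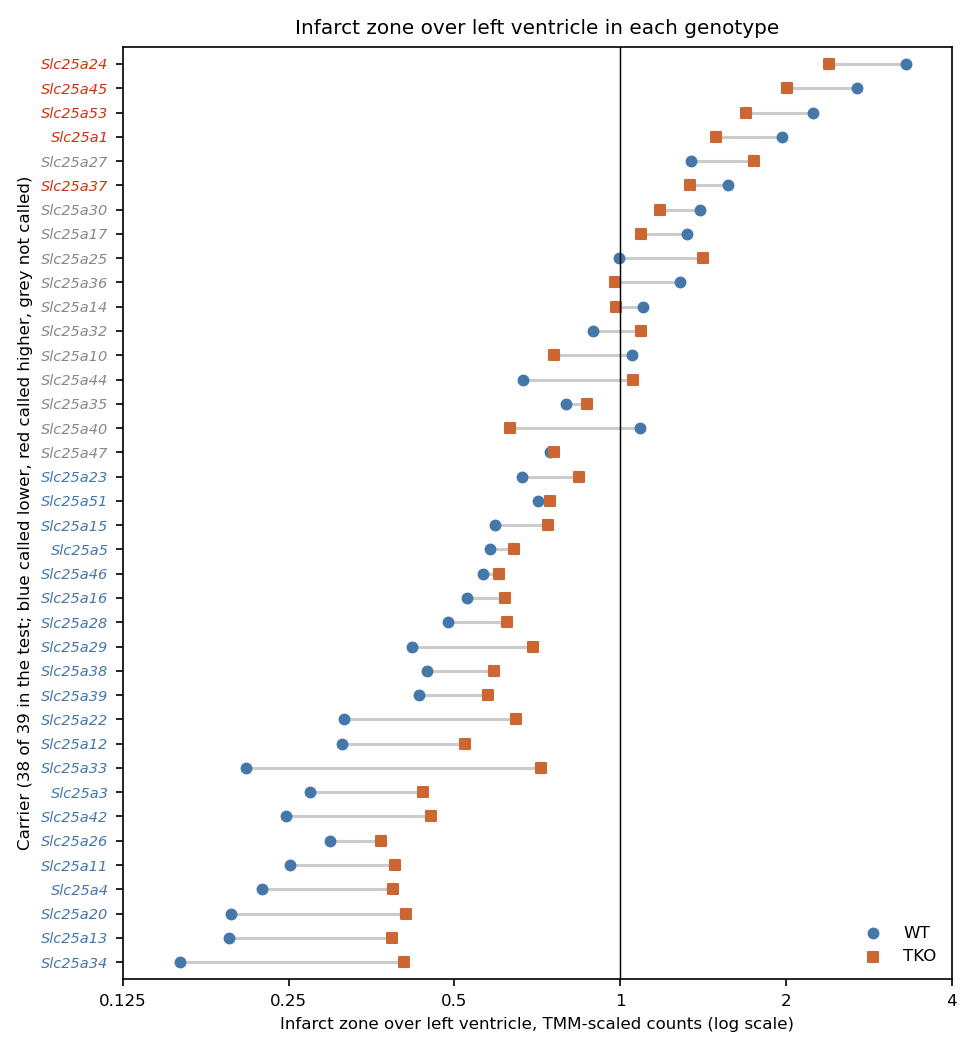
Each row is 1 of 38 carriers tested, ordered by fold change, with the ratio of the infarct zone to the LV (TMM-scaled counts, log axis) in WT (blue circles) and in TKO (orange squares). Blue names were called lower, red names higher, and grey names neither, and in all 21 carriers plotted in blue the TKO point lies to the right of the WT point (of the 22 carriers called lower, 18 under total counts).

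Among the ADP/ATP carriers, *Slc25a4* had 5522 CPM in the WT LV, 6324 in the TKO LV, 1235 in the WT infarct zone, and 2450 in the TKO infarct zone. The border zone had 4109 CPM in WT and 5200 in TKO, and the remote zone 5083 and 5279. Both infarct zone libraries were below the other 6. The infarct zone stood at 0.224 of the LV for WT (95% interval, 0.221 to 0.226) and at 0.387 for TKO (0.384 to 0.391), where intervals here and below are exact binomial ones and cover counting error only. The test across genes gave a log2 fold change of -1.74 (SE 0.30, edgeR adjusted p = 0.00351), and in a fit of only the 4 libraries of these regions the adjusted p was 0.0687. *Slc25a5*, the widely expressed ADP/ATP carrier (Ant2), had 243 CPM in the WT LV, 294 in the TKO LV, 141 in the WT infarct zone, and 189 in the TKO infarct zone. In the border and remote zones *Slc25a5* lay between 238 and 259 CPM, so its infarct zone values were the lowest too. Its log2 fold change of -0.71 (SE 0.15) was called, but under total counts it became -0.03 with an adjusted p of 0.841, and the fit of 4 libraries gave 0.0631. The annotation also holds a transcribed pseudogene, Slc25a5-ps, so reads of *Slc25a5* may have been divided between the copies.

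The share of *Slc25a5* in the counts of this pair does not depend on the library scaling. It was 4.21% in the WT LV (4.11 to 4.31) and 4.44% in the TKO LV (4.34 to 4.54). In the infarct zone it reached 10.22% for WT (9.97 to 10.46) and 7.16% for TKO (6.99 to 7.32). The border zone had 5.72% in WT and 4.75% in TKO, and the remote zone 4.48% and 4.41%. Thus the pair shifted toward *Slc25a5* in both infarct zone libraries, and the WT and TKO shares there differed beyond counting error. *Slc25a31*, the ADP/ATP carrier of the testis, had between 5 and 14 counts per library and was not tested.

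*Slc25a3* had 1543 CPM in the WT LV, 1704 in the TKO LV, 422 in the WT infarct zone, and 746 in the TKO infarct zone. The border zone had 1092 CPM in WT and 1352 in TKO, and the remote zone 1276 and 1419. As with *Slc25a4*, the infarct zone values did not overlap those of the other regions (log2 fold change -1.52, SE 0.23, edgeR adjusted p = 0.00226). The calcium-regulated ATP-Mg/phosphate carriers, which adjust the adenine nucleotide pool of the matrix, moved apart from one another. *Slc25a24* had 7.19 CPM in the WT LV, 7.57 in the TKO LV, 23.7 in the WT infarct zone, and 18.1 in the TKO infarct zone. In the border zone it had 13.5 CPM in WT and 10.3 in TKO, and in the remote zone 11.0 and 8.93. Every zone was above the LV of the same genotype, and the infarct zone was the highest (edgeR adjusted p = 0.00081). *Slc25a23* fell (log2 fold change -0.42, SE 0.11), although under total counts its change was 0.26, in the other direction. *Slc25a25* had a log2 fold change of 0.22 (SE 0.20) and was not called. The share of *Slc25a24* in the counts of *Slc25a24* and *Slc25a23* was 13.93% in the WT LV and 44.66% in the WT infarct zone, and in TKO it was 15.37% and 34.03%.

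**Figure D3:**
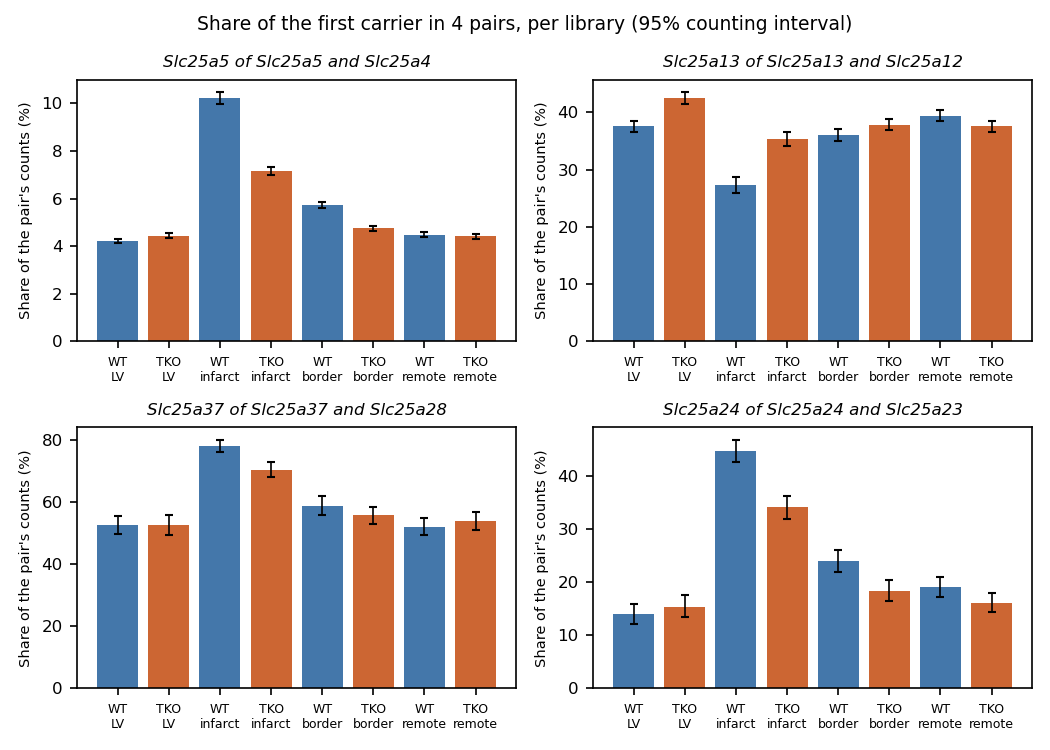
Bars give the share (%) that the first-named carrier holds of the counts of a pair in each library (blue, WT; orange, TKO), with 95% exact binomial intervals that cover counting error only. The WT infarct zone stands apart in every panel, at 10.22%, 27.29%, 78.11%, and 44.66%, and the TKO infarct zone lies between it and the LV.

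The aspartate/glutamate carriers *Slc25a12* (Aralar) and *Slc25a13* (citrin) bring cytosolic reducing equivalents into the matrix together with *Slc25a11*, the 2-oxoglutarate/malate carrier. *Slc25a13* had 124 CPM in the WT LV, 159.5 in the TKO LV, 24.1 in the WT infarct zone, and 61.5 in the TKO infarct zone. It lay between 89.9 and 126 CPM in the border and remote zones, above both infarct zone libraries. *Slc25a12* had 205 and 216 CPM in the LV of WT and TKO, 64.2 and 113 in the infarct zone, and 159.5 to 209 in the border and remote zones. *Slc25a11* had 533 and 646 CPM in the LV, 134 and 252 in the infarct zone, and 413 to 523 elsewhere. All 3 carriers fell in the infarct zone, by log2 fold changes of -1.81 (SE 0.29), -1.30 (SE 0.19), and -1.66 (SE 0.22), respectively. Within the pair, *Slc25a13* made up 37.57% of the counts in the WT LV (36.57 to 38.58) and 27.29% in the WT infarct zone (25.87 to 28.75). In TKO the share of *Slc25a13* was 42.51% in the LV (41.52 to 43.50) and 35.30% in the infarct zone (34.11 to 36.50). For the WT border zone the share was 36.05% (34.98 to 37.14) and for that of TKO 37.85% (36.87 to 38.83), while the remote zone libraries had 39.43% (WT) and 37.54% (TKO). The WT infarct zone was thus below all other libraries beyond counting error, whereas in TKO all 3 zones were below the LV and the interval of the infarct zone overlapped that of the WT border zone. The enzymes of the same shuttle fell as well: *Got1*, *Got2*, *Mdh1*, and *Mdh2*, 4 of 4, had a median fold of 0.309.

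The remaining carriers of glutamate and of di- and tricarboxylates moved in different directions. *Slc25a1*, the citrate carrier that exports citrate for lipid synthesis, had 274 counts in the WT LV, 234 in the TKO LV, 831 in the WT infarct zone, and 482 in the TKO infarct zone. In the border and remote zones *Slc25a1* had between 217 and 310 counts, so both infarct zone libraries were the highest (log2 fold change 0.78, SE 0.14, edgeR adjusted p = 0.00467). *Slc25a10*, the dicarboxylate carrier, had between 14.0 and 20.5 CPM and was not called (log2 fold change -0.18, SE 0.18). *Slc25a22*, a glutamate/proton symporter, fell (log2 fold change -1.21, SE 0.31, edgeR adjusted p = 0.0151), and its values are given with those of the LV. *Slc25a18*, its close relative, and *Slc25a21*, the carrier of 2-oxoadipate, had at most 12 and 10 counts in a library and were not tested. *Slc25a21* had 0 counts in the WT infarct zone and 10 in TKO, which makes it at least 3.94-fold higher there if a count of 3 is set as the floor of the library at 0.

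*Slc25a20*, the carnitine/acylcarnitine carrier, had 214 CPM in the WT LV, 203 in the TKO LV, 42.0 in the WT infarct zone, and 82.8 in the TKO infarct zone. The border zone had 128 CPM in WT and 169.7 in TKO, and the remote zone 159.7 and 185. The infarct zone was the lowest in both genotypes (log2 fold change -1.81, SE 0.25, edgeR adjusted p = 0.00185). Among the carnitine-dependent enzymes, *Cpt1b* (log2 fold change -1.69, SE 0.27), *Cpt2* (-1.87, SE 0.26), and *Crat* (-1.81, SE 0.27) fell, *Cpt1c* rose, and *Cpt1a* was not called. Of the amino acid carriers, *Slc25a15* (ornithine), *Slc25a29* (basic amino acids), and *Slc25a38* (glycine) fell, whereas *Slc25a44* (branched-chain amino acids) had a log2 fold change of -0.24 (SE 0.17) and was not called. Under total counts *Slc25a15* turned to 0.09, and *Slc25a29* and *Slc25a38* kept their direction but were no longer called.

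The mitoferrins moved in opposite directions. *Slc25a37* (mitoferrin 1), which serves erythroid cells in particular, had 21.2 CPM in the WT LV, 20.7 in the TKO LV, 33.2 in the WT infarct zone, and 27.6 in the TKO infarct zone. It lay between 20.7 and 22.2 CPM in the border and remote zones, so only the infarct zone stood above the rest of the libraries (log2 fold change 0.54, SE 0.11, edgeR adjusted p = 0.00748). *Slc25a28* (mitoferrin 2), expressed in most tissues, had 19.2 and 18.7 CPM in the LV of WT and TKO and 9.31 and 11.6 in the infarct zone (log2 fold change -0.86, SE 0.15). *Slc25a28* lost its call under total counts (log2 fold change -0.18). *Slc25a37* held 52.53% of the pair's counts in the WT LV and 78.11% in the WT infarct zone. For TKO the values were 52.55% and 70.37%, and the infarct zone intervals did not reach those of any other library. Of 11 genes of iron handling, heme synthesis, and iron-sulfur cluster assembly, 8 fell and 2 rose, the latter being *Alas2*, the erythroid enzyme of heme synthesis, and *Ftl1*, a ferritin chain. The 5 erythroid markers tested, *Alas2* among them, were called higher in the infarct zone, with a median fold of 2.05. Their summed level was 4846 and 5113 CPM in the infarct zone of WT and TKO and between 2137 and 3150 CPM in the other libraries. Their part in the rise of *Slc25a37* was not tested.

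The carriers of cofactors and nucleotides fell in part. *Slc25a42*, which carries coenzyme A into the matrix, had a log2 fold change of -1.58 (SE 0.20), and *Slc25a26*, the carrier of S-adenosylmethionine, one of -1.60 (SE 0.14). *Slc25a33* (pyrimidine nucleotides), *Slc25a16*, and *Slc25a51* (NAD) also fell, although *Slc25a51* was at 0.22 under total counts. *Slc25a17*, *Slc25a32*, and *Slc25a36* were not called. *Slc25a39*, required for glutathione import, fell (log2 fold change -1.01, SE 0.13), and its homologue *Slc25a40* did not pass (-0.27, SE 0.20). None of the uncoupling-protein-like carriers *Slc25a14*, *Slc25a27*, and *Slc25a30* was called. The family members with other symbols, which the rule did not take, did not move as 1 group, since *Ucp3* and *Mtch2* fell and *Ucp2* and *Mtch1* rose.

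Of the carriers whose substrate is less well defined, *Slc25a34* fell the most of all carriers tested. It had 263 CPM in the WT LV, 215 in the TKO LV, 41.8 in the WT infarct zone, and 87.1 in the TKO infarct zone. The border and remote zones held between 151 and 214 CPM of *Slc25a34*. *Slc25a46*, an outer membrane protein of mitochondrial dynamics, fell by 0.78 on the log2 scale (SE 0.11) and was not called under total counts. *Slc25a45* rose, with 137 and 105 counts in the LV of WT and TKO and 570 and 291 in the infarct zone (log2 fold change 1.22, SE 0.17). *Slc25a53* also rose (0.97, SE 0.28), from 55 and 48 counts in the LV to 190 and 112 in the infarct zone.

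Proteins that act beside the carriers were described in the same test. All 3 VDAC genes, the channels of the outer membrane, fell, with a median fold of 0.439. Of 12 genes of the import route that inserts carriers into the inner membrane, 11 fell, *Timm10* the most (log2 fold change -1.34, SE 0.17). The pyruvate carrier subunits *Mpc1* and *Mpc2* fell, and the sideroflexins *Sfxn1* and *Sfxn3*, the former a serine transporter, rose. In the calcium uniporter complex 4 of 7 genes fell, whereas *Mcub*, its inhibitory subunit, rose (1.67, SE 0.23). Across the 39 carriers, the WT remote zone level and the log2 ratio of the infarct zone to the LV had a Spearman's rho of -0.724, given as a description, since genes of the same libraries are not independent replicates.

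In the border zone, edgeR called 0 of the 39 carriers against the LV, where 0.715% of all genes were called. Its unadjusted p was under 0.05 for 6 of the 39 carriers and for 2333 of all 12999 genes. DESeq2 called 1 carrier higher, *Slc25a24*, where it called 3.72% of all genes higher. In the remote zone both tools called 0 carriers, where edgeR called 0% and DESeq2 1.28% of all genes. By edgeR 1 carrier and 1378 of all 12999 genes had an unadjusted p under 0.05. The 22 carriers that fell in the infarct zone had a median border zone over LV ratio of 0.741 in WT and 0.907 in TKO. Their remote zone over LV medians were 0.907 in WT and 0.936 in TKO. The border zone medians of these carriers thus lay between those of the infarct and the remote zone, as a description without a test. Not every carrier did so. *Slc25a5* had 249 and 259 CPM in the border zone of WT and TKO, and 238 and 244 in the remote zone. Under total counts the median over all 39 carriers was 1.015 for the WT and 0.968 for the TKO border zone, against 0.922 and 0.939 with TMM. For the remote zone it was 1.006 and 0.997 under total counts, so there the WT border zone median was above that of the remote zone.

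The comparison of TKO with WT had 1 library on each side within a region. Over the 39 carriers the median ratio of TKO to WT was 1.05 (LV), 1.24 (infarct), 1.16 (border), and 1.05 (remote). The all-gene medians lay between 0.992 and 1.006. In the infarct zone 26 carriers were higher and 13 lower in TKO, where 6604 of all 12999 genes were higher and 6392 lower. The counting interval lay above 1 for 24 carriers and below 1 for 7. The same interval count over all genes is not given here, so this one is not read as particular to the carriers. Under total counts the all-gene median of the infarct zone moved by -0.29 on the log2 scale and the carrier median to 1.008. By construction the carriers stay above all genes by the same factor of 1.23, since a scaling multiplies every ratio of 2 libraries by 1 constant. At least a 2-fold difference was reached in the infarct zone by 2 carriers, *Slc25a13* (2.55; 2.37 to 2.75) and *Slc25a34* (2.08), both higher in TKO, and by none in the other direction. Of all genes, 2.4% were at least 2-fold higher and 1.43% lower there. In the LV 0 carriers were 2-fold higher and 1 lower, *Slc25a33*, where all genes gave 1.98% and 3.62%. No carrier reached 2-fold in the border zone (1.23% and 3.26% of all genes) or remote zone (1.17% and 2.39%).

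The TKO over WT ratios were then read for the carriers that fell and those that rose in the infarct zone. Of the 22 that fell, all 22 were higher in TKO in the infarct zone (19 under total counts), with a median ratio of 1.41, and the median over all 3715 genes called lower was 1.28. The infarct zone libraries enter both comparisons, so these values are a description. In the border zone, whose libraries were not contrasted in choosing them, the 22 were again all higher in TKO (median 1.24; 20 of 22 under total counts), where 3082 of the 3715 genes were and the median was 1.11. The markers of cell types moved with the border zone values too: 9 of 10 cardiomyocyte markers were higher in TKO (median ratio 1.15), and 7 of 7 fibroblast (0.559) and 7 of 7 macrophage markers (0.806) were lower. Their part there was not tested. In the remote zone 18 of the 22 were higher (median 1.08), and in the LV 14 of 22 (median 1.05). Of all 12999 genes tested, called or not, 6230 were higher in the remote zone (median 0.992) and 6668 in the LV (median 1.006). The 5 carriers that rose had median ratios of 0.698 (infarct), 0.861 (border), 0.814 (remote), and 0.923 (LV). The medians over all genes tested, called or not, were 1.005, 0.998, 0.992, and 1.006 in the same order. The genes called higher are not set beside these 5 here. *Slc25a1* and *Slc25a45* were the only carriers tested that were lower in TKO in all 4 regions, 2 of 39, where 13.5% of all genes were. In the other direction, 15 of 39 were higher in TKO in all 4 regions, where 13.2% of all genes were. Under total counts 3 carriers were lower in all 4 regions, where 19.6% of all genes were, and 12 were higher, where 6.95% were.

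**Figure D4:**
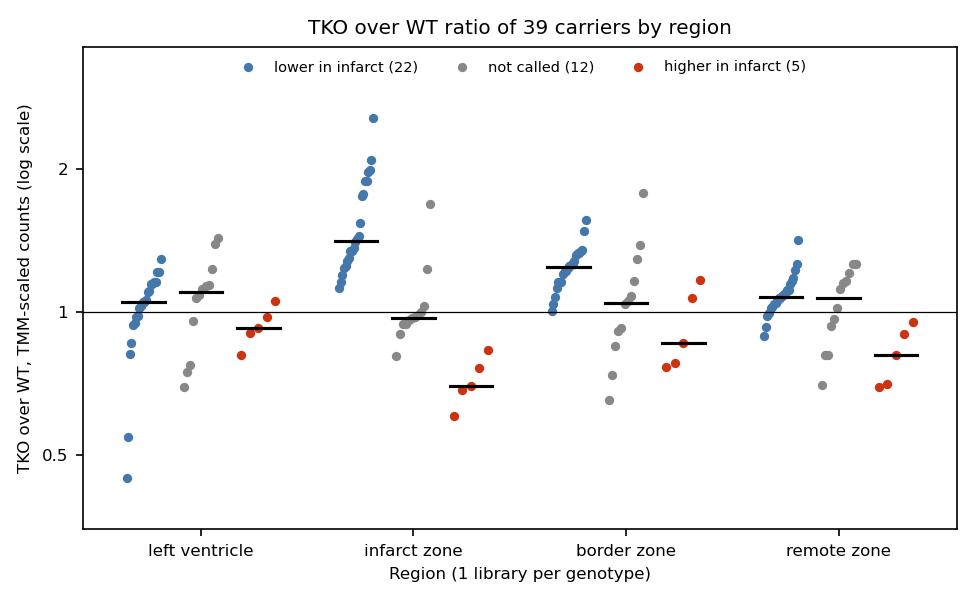
Points are the TKO over WT ratios (TMM-scaled counts, log axis) of the 39 carriers in each region, split into those called lower (22, blue), not called (12, grey), and called higher (5, red) in the infarct zone against the LV, with black bars at the medians. Blue medians are 1.05, 1.41, 1.24, and 1.08 and red medians 0.923, 0.698, 0.861, and 0.814 from left to right.

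The largest carrier followed the same course. *Slc25a4* was 1.98-fold higher in TKO in the infarct zone, 1.27-fold higher in the border, 1.04-fold in the remote, and 1.15-fold in the LV library. *Slc25a3* had 1.77, 1.24, 1.11, and 1.10 in the same order, *Slc25a11* 1.88, 1.25, 1.07, and 1.21, and *Slc25a20* 1.97, 1.33, 1.16, and 0.947. *Slc25a5* differed less in the infarct zone, at 1.34 (1.30 to 1.39). In contrast, *Slc25a24* had 0.763 (0.690 to 0.843), *Slc25a1* 0.686 (0.612 to 0.769), and *Slc25a37* 0.832 (0.766 to 0.903) in the infarct zone. The cardiomyocyte markers moved alongside: 9 of 10 were higher in TKO in the infarct zone, with a median ratio of 1.95. The fibroblast markers were lower in TKO there, 7 of 7, with a median ratio of 0.818. When the median of the cardiomyocyte markers was set to 1, the median carrier ratio in the infarct zone was 0.635. Beyond these values, their part in the genotype difference was not tested.

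With the 4 regions as blocks, edgeR called 0 of the 39 carriers between genotypes, where it called 0.138% of all genes. Its unadjusted p was under 0.05 for 11 of the 39 carriers and for 2109 of all 12999 genes. This test treats regions as if they were replicates. *Slc25a42* had 68.8 CPM in the WT LV and 70.8 in TKO, 17.0 and 32.1 in the infarct zone, 40.4 and 63.1 in the border zone, and 50.1 and 70.8 in the remote zone. It was higher in TKO in 4 of 4 regions, with a log2 fold change of 0.52 (SE 0.14). The edgeR adjusted p for *Slc25a42* was 0.203, and it ranged from 0.0579 to 0.602 over the alternatives with edgeR. DESeq2 called *Slc25a42* with an adjusted p of 0.0436, the 1 carrier it called, where 0.9% of all genes were called higher.

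Whether the genotype difference in the infarct zone departed from that of the other regions was tested with an interaction term, which rests on 1 library of each genotype. The edgeR test called 0 carriers and 0.00769% of all genes. DESeq2 called 6 carriers as departing upward in TKO, namely *Slc25a3*, *Slc25a4*, *Slc25a11*, *Slc25a13*, *Slc25a20*, and *Slc25a34*, where it called 2.23% of all genes in that direction. For *Slc25a13* the departure was 1.04 on the log2 scale (SE 0.19), with an adjusted p of 0.410 by edgeR and 0.00247 by DESeq2. For *Slc25a4* it was 0.79 (SE 0.17), with 0.410 by edgeR and 0.00456 by DESeq2. These calls therefore depended on the tool.

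In the LV, *Slc25a22* and *Slc25a33* had the lowest TKO over WT ratios of the 39 carriers. *Slc25a22* had 56.1 CPM in the WT LV and 30.6 in the TKO LV. It had 17.6 and 19.8 in the infarct zone of WT and TKO, 21.8 and 28.8 in the border zone, and 24.7 and 31.2 in the remote zone. The WT LV library stood above all others, and the TKO over WT ratio was 0.545 in the LV and between 1.12 and 1.32 elsewhere. The departure of the LV from the other regions, a test added after these data had been seen, was -1.18 on the log2 scale (SE 0.15, edgeR adjusted p = 0.0455). *Slc25a22* was the 1 carrier that edgeR called, where 0.646% of all genes were called. DESeq2 called *Slc25a22* (adjusted p = 0.00429) and *Slc25a33* (adjusted p = 0.0164), where it called 1.35% of all genes as departing downward. *Slc25a33* had 43.3 CPM in the WT LV and 19.3 in the TKO LV, a ratio of 0.447 (0.402 to 0.497), and between 9.05 and 26.0 CPM in the other libraries. By edgeR its departure of -1.39 (SE 0.28) did not pass (adjusted p = 0.106).

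**Figure D5:**
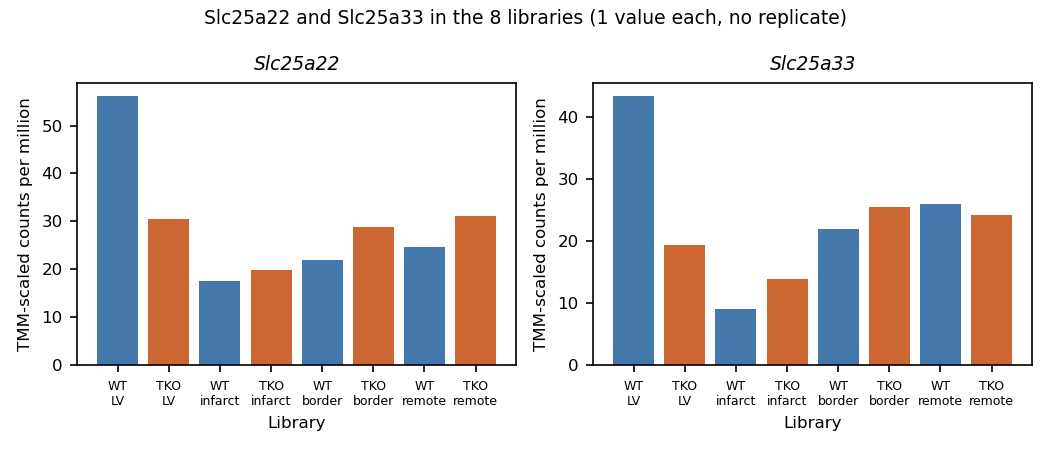
Bars give the TMM-scaled CPM of *Slc25a22* (left) and *Slc25a33* (right) in the 8 libraries, 1 value each (blue, WT; orange, TKO). The WT LV bars are the tallest, at 56.1 and 43.3, against 30.6 and 19.3 in the TKO LV.

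The WT LV library also stood apart in adipocyte genes. *Adipoq* had 370 counts in the WT LV and 6 in the TKO LV, *Cfd* 1144 and 17, and *Plin1* 34 and 0, with 0 counts of *Plin1* in all other libraries. *Ucp1*, the uncoupling protein of brown fat and itself an SLC25 family member by structure, had 112 counts in the WT LV and at most 3 in any other library. *Ucp3*, the uncoupling protein of muscle and brown fat, had 4691 counts in the WT LV and 1905 in the TKO LV. The summed level of the 5 adipocyte markers was 729 CPM in the WT LV, 486 in the TKO LV, and between 265 and 622 in the other libraries. *Fabp4*, a fatty acid binding protein that capillary endothelium makes too, held 668 and 485 CPM of the sum in the LV of WT and TKO. The other 4 markers together had 60.6 CPM in the WT LV, 0.888 in the TKO LV, and between 3.02 and 13.6 in the other libraries. The part of these genes in the values of *Slc25a22* and *Slc25a33* was not tested. With the remote zone as reference, *Slc25a22* had a log2 fold change of -0.58 in the infarct zone (SE 0.30, edgeR adjusted p = 0.156). Against the LV it was -1.21 (SE 0.31). *Slc25a33* had -1.12 (SE 0.38, edgeR adjusted p = 0.0495) against the remote zone and -1.42 (SE 0.39) against the LV. The WT LV library stayed in both fits, so it enters the SE and adjusted p of either reference.

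The 5 carriers below the filter, *Slc25a18*, *Slc25a21*, *Slc25a31*, *Slc25a43*, and *Slc25a48*, had at most 29 counts in a library. *Slc25a43* had 2 and 1 counts in the LV of WT and TKO and 29 and 26 in the infarct zone, which is 9.39-fold (2.38 to 81.2) for WT and 18.8-fold (3.09 to 772) for TKO. In the fit without a filter on low counts *Slc25a43* was called higher in the infarct zone (log2 fold change 3.58, SE 0.71, edgeR adjusted p = 0.00659), where 23.2% of all genes were called higher, and the other 4 were not called. Its locus on chromosome X ends 18448 bases before that of *Slc25a5*, which fell in the infarct zone. *Slc25a48* had 24 counts in the WT infarct zone and 0 in TKO, at least 6.76-fold lower in TKO against a floor of 3 counts per library, but 19 counts in the TKO LV against 5 in WT. In the border zone it had 8 counts in WT and 0 in TKO, at least 2.57-fold lower in TKO. *Slc25a29* and *Slc25a47* on chromosome 12 lie 162 bases apart, and *Slc25a47* had between 63 and 125 counts and was not called.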

How the data were processed

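Hearts of WT and TKO mice were profiled by RNA sequencing, 1 library per genotype and region. Per the labels and the methods of the study, the authors trimmed reads with Trim Galore 0.6.5, quantified them with kallisto 0.46 on the mm10 (GRCm38) transcriptome, summarised transcripts to genes with tximport, and worked in edgeR 3.34.1. The authors deposited estimated counts as whole numbers, without normalization. Kallisto divides reads among similar transcripts, so near-identical copies can share counts.

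Genes whose mean reached 1 CPM, 12999 in all, were tested in R 4.3.3 with edgeR 4.0.16 (quasi-likelihood, Benjamini-Hochberg over all genes, threshold 0.05) and DESeq2 1.42.0 as an alternative, for genotype with region as a block, for each zone against the LV with genotype as a block, and for the interaction of genotype with infarct zone. These fits treat regions or genotypes as replicates, so their p-values bear on these libraries and not on mice. The tests of genotype, of the infarct zone against the LV, of the interaction, and of the LV departure were run on simulated data with known changes. Those of the border zone, the remote zone, and the remote zone reference were not. Ratios of 2 libraries have no p-value. Counts past 2-fold used a prior count of 2. The alternatives were total counts, DESeq2 size factors, TMM over the libraries compared, mitochondrial DNA-encoded genes left out, cardiomyocyte markers set to 1, other filters, and regions left out. The LV departure and the remote zone reference were added after the data had been seen. Carriers were grouped by transported solute. Those of ADP/ATP, phosphate, glutamate and aspartate, di- and tricarboxylates, carnitine, and iron were named, together with carriers that were called or 2-fold different and the 5 with most counts. Other names, and the named members of other lists, were chosen after their values were seen. Members and lists were chosen with earlier results of these data known. Positions and lengths come from GENCODE vM21 (GRCm38). The annotation lists 3 more symbols, Slc25a2, Slc25a41, and Slc25a54, which are not analysed here, and 1 tested carrier enters the counts and medians but its own values are not reported here. Figures were made with Python 3.11.15 and matplotlib 3.10.9.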

Additional observations from a re-analysis of the deposited data

Results flagged for a closer look

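*Slc25a22*, a glutamate carrier, was flagged because its genotype difference in the LV departed from that in the other 3 regions, by -1.18 on the log2 scale (edgeR's quasi-likelihood test, adjusted p = 0.0455), with the adjusted p between 0.00429 and 0.0457 over the alternatives tried. The TKO over WT ratio was 0.545 in the LV and above 1 in the other regions. The departure rests on 1 WT and 1 TKO library of the LV, and in the WT library *Adipoq*, *Cfd*, *Plin1*, and *Ucp1* were also high, whose part was not tested.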

How the results depend on the processing

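Since each group is 1 library, counting error is the only error known for a ratio. No paired analysis was possible because the labels give no replicate numbers, and the blocks of the fits were regions or genotypes. Under total counts 12 carriers were called higher and 10 lower in the infarct zone against the LV (11 and 9 against the remote zone), and 2 carriers departed downward in the LV. *Slc25a15* (0.088), *Slc25a23* (0.26), and *Slc25a51* (0.22) turned to a positive log2 change. The carrier medians became 1.06 (WT) and 1.07 (TKO) for infarct zone over LV and 1.01 for TKO over WT in the infarct zone, where 1 carrier was 2-fold higher and 1 lower. By construction this scaling does not take out the shift of the all-gene median. DESeq2 called 1 carrier between genotypes, 1 higher in the border zone, 6 departing in the infarct zone, and 2 in the LV; the cause was not tested. With the cardiomyocyte markers set to 1, the TKO over WT medians of the carriers were 0.934 (LV), 0.635 (infarct), 1.007 (border), and 0.949 (remote). All genes had 0.895, 0.516, 0.865, and 0.894. The carrier medians over the LV were 2.40 (infarct), 1.21 (border), and 1.18 (remote) in WT, and 1.47, 1.06, and 1.07 in TKO. All genes had 4.09, 1.32, and 1.23 in WT, and 2.01, 1.12, and 1.09 in TKO. This scaling removes the markers' own change. Without a filter on low counts the WT infarct zone median was 0.662, as 5 more carriers enter, and 6 carriers were called higher and 22 lower in the infarct zone, the sixth being *Slc25a43*. Leaving out 1 region at a time, 0 carriers were called between genotypes in each case. A tally over these alternatives covered only the 28 tested carriers that the rule above named. Of their tests, 15 lost and 10 gained a call with the direction kept, 3 reversed, and 560 stayed the same. Carriers outside this tally could gain or lose calls too, and being called was part of the rule for naming. In the fit of only the 4 libraries of the infarct zone and LV, 16 carriers were called lower and 4 higher.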
